A study of Mus musculus with 22 samples.

Results

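The interferon response genes are 37 named transcripts that interferon induces in many mouse cell types, among them transcription factors, sensors of foreign nucleic acid and proteins that block viruses and intracellular microbes. They were taken by name and by no cut on measured values. The list was nonetheless chosen with earlier results of these data known. Of the 37, 30 had a probe set that names 1 gene and 29 passed the filter on low values, out of 14860 genes measured and 8545 genes tested on the array. Ifit3, Oas3, Igtp and Eif2ak2 shared a probe set with other symbols, and Ifit3, Oas3, Igtp, Eif2ak2, Usp18, Xaf1 and Ifi44 were not analysed here. Mx1 was measured and did not exceed the median of the whole table (log2 value 4.55) on any of the 22 arrays. Its group means lay between 2.75 ± 0.23 in Vg2+ CD24+CD73- cells (SD, n = 3) and 3.82 ± 0.19 in Vg1.1+ CD24-CD73+ cells (n = 4).

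RNA came from thymocytes of adult female C57BL/6 mice, aged 8 weeks and with no treatment, sorted as gamma-delta T cells on CD24, CD73 and the gamma-chain variable region in their receptor, which was Vg1.1 or Vg2. Thymocytes lose CD24 as they mature, and gain CD73 on committing to the gamma-delta fate. The first stage is CD24+CD73-, with 4 arrays of Vg1.1+ and 3 of Vg2+ cells. The middle stage is CD24+CD73+, with 3 and 4 arrays. The last stage is CD24-CD73+, with 4 arrays of each. One array held 1 sample, and values are log2 expression values as deposited. The labels call the replicates biological and do not say that each came from other mice, so a p-value measures the spread between these samples and no more. A bulk sample cannot tell fewer cells with a transcript from less of it per cell, which holds for every value below.

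Type I interferons signal through a receptor of Ifnar1 and Ifnar2 and the kinases Jak1 and Tyk2 to a complex that includes Stat2 and Irf9, which binds interferon-stimulated response elements in promoters. Interferon gamma signals through Ifngr1 and Ifngr2, and many of its target genes carry GAS elements in their promoters. Medullary epithelium of the thymus makes type I interferon without infection, and T cells that mature in the thymus are known to acquire interferon-induced transcripts late in their development.

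Promoter sequences were taken from RefSeq (build GRCm38.p6), in windows of 250 bases before to 50 bases after each annotated start. Of the 30 measured genes 23 had at least 1 window. Dhx58, Mx1, Oas2, Parp14, Parp9, Rtp4 and Zbp1 had none. The core of the response element, GAAA and GAAA with NN between them on either strand (N is any base), stood in a window of 10 of the 23 genes (43.5%), against 3.99% of 27025 genes. The GAS core, TTCNNNGAA, stood in a window of 7 of the 23 (30.4%), against 9.55% of all genes. The genes with the first motif were Tgtp1, Gbp2, Gbp3, Ifit1, Ifih1, Bst2, Trim30a, Stat2, Irgm1 and Rsad2, and those with the GAS core were Tgtp1, Ifit2, Ifi35, Isg20, Bst2, Irf1 and Adar. A match describes letters and is no measured binding, and a window without the letters says nothing of the factor.

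The 6 stretches below are shown because 5 of them lie before genes that were called higher as the thymocytes matured. The sixth, of Irgm1, lies before a gene that carries the same letters and passed in no comparison of all arrays. The means of Irgm1 also rose, and it passed in some comparisons without a pair of arrays described below. Each reads 5′ to 3′ along the gene, and capitals mark the response element core on either strand. Tgtp1 is at chr11:48992284-48992353 on the minus strand, Gbp2 at chr3:142620574-142620643 and Gbp3 at chr3:142559969-142560043 on the plus strand. Ifit1 is at chr19:34640755-34640843 on the plus strand, Bst2 at chr8:71537557-71537632 and Irgm1 at chr11:48871421-48871480, both on the minus strand. In Gbp3, Bst2 and Irgm1 a pair of cores overlap, and in Ifit1 a pair stand apart.
Tgtp1: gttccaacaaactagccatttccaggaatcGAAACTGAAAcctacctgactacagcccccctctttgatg
Gbp2: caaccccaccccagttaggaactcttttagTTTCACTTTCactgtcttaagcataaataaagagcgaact
Gbp3: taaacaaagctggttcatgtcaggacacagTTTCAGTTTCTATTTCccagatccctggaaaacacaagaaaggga
Ifit1: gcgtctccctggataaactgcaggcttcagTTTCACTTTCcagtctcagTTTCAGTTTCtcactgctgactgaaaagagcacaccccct
Bst2: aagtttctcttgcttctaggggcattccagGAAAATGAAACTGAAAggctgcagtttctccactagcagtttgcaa
Irgm1: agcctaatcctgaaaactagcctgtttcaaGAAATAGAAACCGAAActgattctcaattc

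A pair of arrays stood apart from the rest in all genes. Vg1.1+ CD24-CD73+ replicate 1 and Vg2+ CD24+CD73+ replicate 3 had an SD of log2 values of 1.61 and 1.71, against 1.81 to 2.09 on the other arrays. On the first of these, 4 of the 29 tested interferon response genes lay above their group mean and the median deviation was -0.36, while the median over all tested genes was -0.14. Counts are therefore also given without both arrays, a setting chosen after the data had been seen. As a check of the labels, Nt5e, which encodes CD73, had mean log2 values of 3.75, 8.05 and 8.33 at the successive stages of Vg1.1+ cells and 3.42, 7.22 and 7.33 in Vg2+ cells, and Cd3d lay between 10.61 and 11.67 on every array. The gamma-chain and delta-chain constant genes and Cd24a were not analysed here. Markers of other cell types were mixed. Of the myeloid and dendritic cell list 6 of 11 measured genes exceeded the table median on 0 of 22 arrays (Csf1r, C1qa, C1qc, Itgam, Adgre1 and Clec9a), while Cd68 and Cst3 did so on all 22. C1qb of that list did so on 4 arrays, H2-Aa on 11 and H2-Ab1 on 12. Of the plasmacytoid dendritic cell list Siglech did so on 0 arrays, and Bst2, Ccr9, Pacsin1, Tcf4, Cox6a2 and Ly6d on 22. Of the B-cell list Ms4a1 and Ebf1 did so on 0 arrays, Cd79a on 2, Pax5 on 7 and Cd79b on 22. Of the thymic epithelium list Foxn1, Krt5 and Psmb11 did so on 0 arrays, Aire on 19 and Epcam on 22.

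Across the whole course of maturation, interferon response genes were higher in CD24-CD73+ than in CD24+CD73- cells of both subsets. In Vg1.1+ cells 17 of 29 were called higher and 0 lower, where 9.71% of all tested genes were called higher and 13.6% lower (limma, Benjamini-Hochberg adjusted p under 0.05). In Vg2+ cells 11 of 29 were called higher and 0 lower, with 11.1% of all tested genes higher and 12.9% lower. The median log2 difference was 0.53 over the 29 genes and -0.04 over all tested genes in Vg1.1+ cells, and 0.45 and -0.03 in Vg2+ cells. The 8 genes Rtp4, Irf7, Oasl2, Gbp2, Gbp3, Parp14, Samd9l and Tgtp1 passed in both subsets. Of the 29 genes 22 had their lowest group mean in Vg2+ CD24+CD73- cells, and 16 had their highest in Vg1.1+ CD24-CD73+ cells and 11 in Vg2+ CD24-CD73+ cells. The lowest and highest groups were not counted over all tested genes, so these counts are no result about the members. Values on all 4 arrays of the last stage exceeded all those of the first for 12 genes in Vg1.1+ cells and 18 in Vg2+ cells, where 10.1% and 15.1% of all tested genes did so. Without the pair of narrow arrays the calls numbered 23 in Vg1.1+ and 18 in Vg2+ cells. Among all 8545 tested genes 2099 and 2679 were then called, against 1994 and 2051 with all arrays. The 23 then included Irgm1 (0.92, adjusted p = 0.000715) but not Cmpk2 (0.30, adjusted p = 0.127). Neither narrow array belongs to the Vg2+ stages compared, where the median difference stayed at 0.45 and the shared estimate of spread changed.

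**Figure D1:**
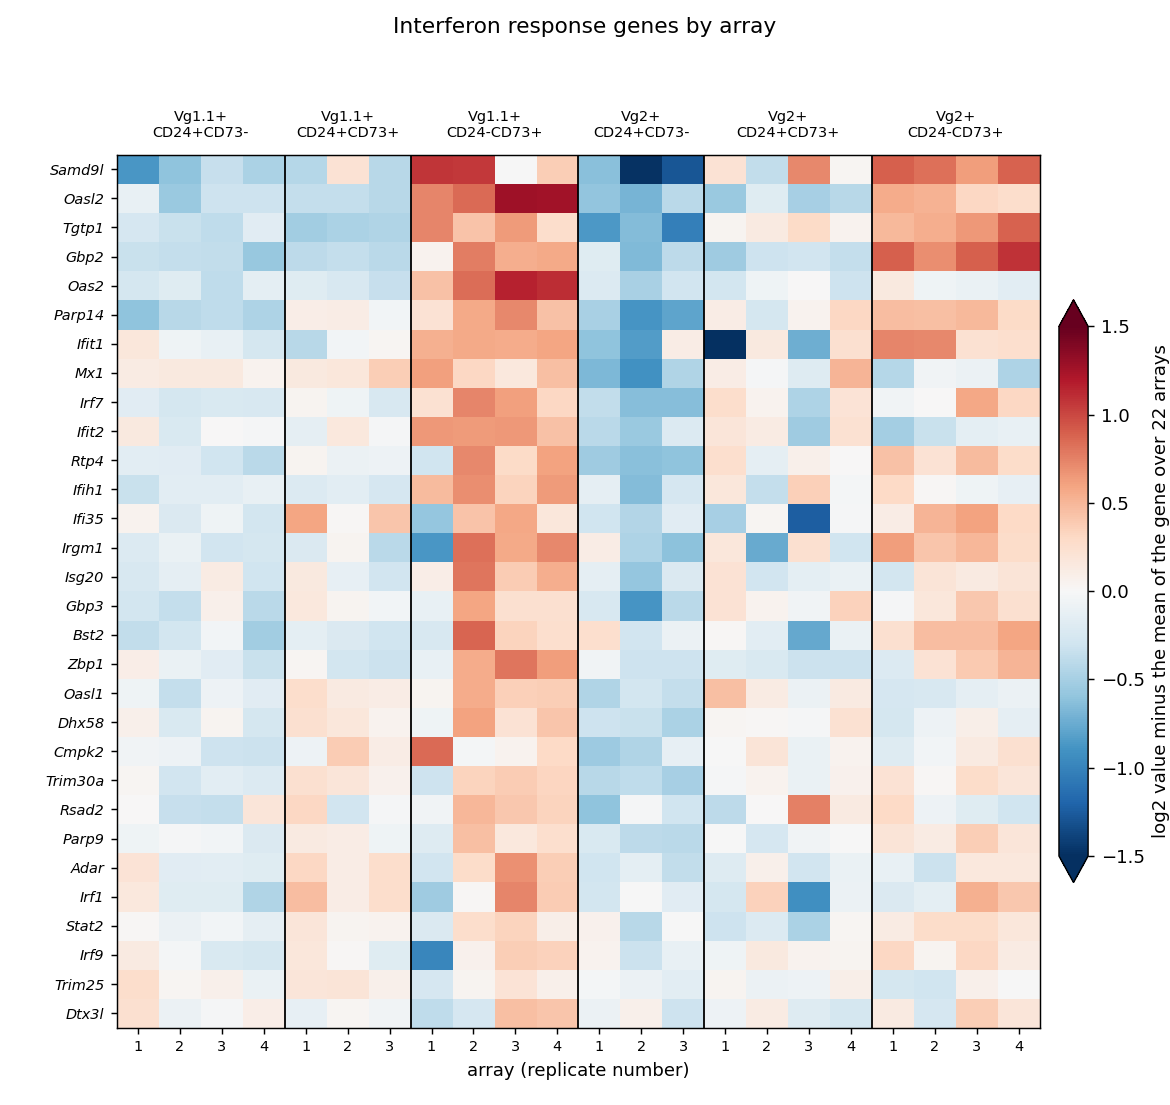
Log2 value of each of the 30 measured interferon response genes (down the page) minus its mean over the 22 arrays, with arrays across the page grouped by subset and stage. Colours turn to higher values towards the CD24-CD73+ arrays of both subsets, while Vg1.1+ CD24-CD73+ replicate 1 is lower than its group for 25 of the 29 tested genes.

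**Figure D2:**
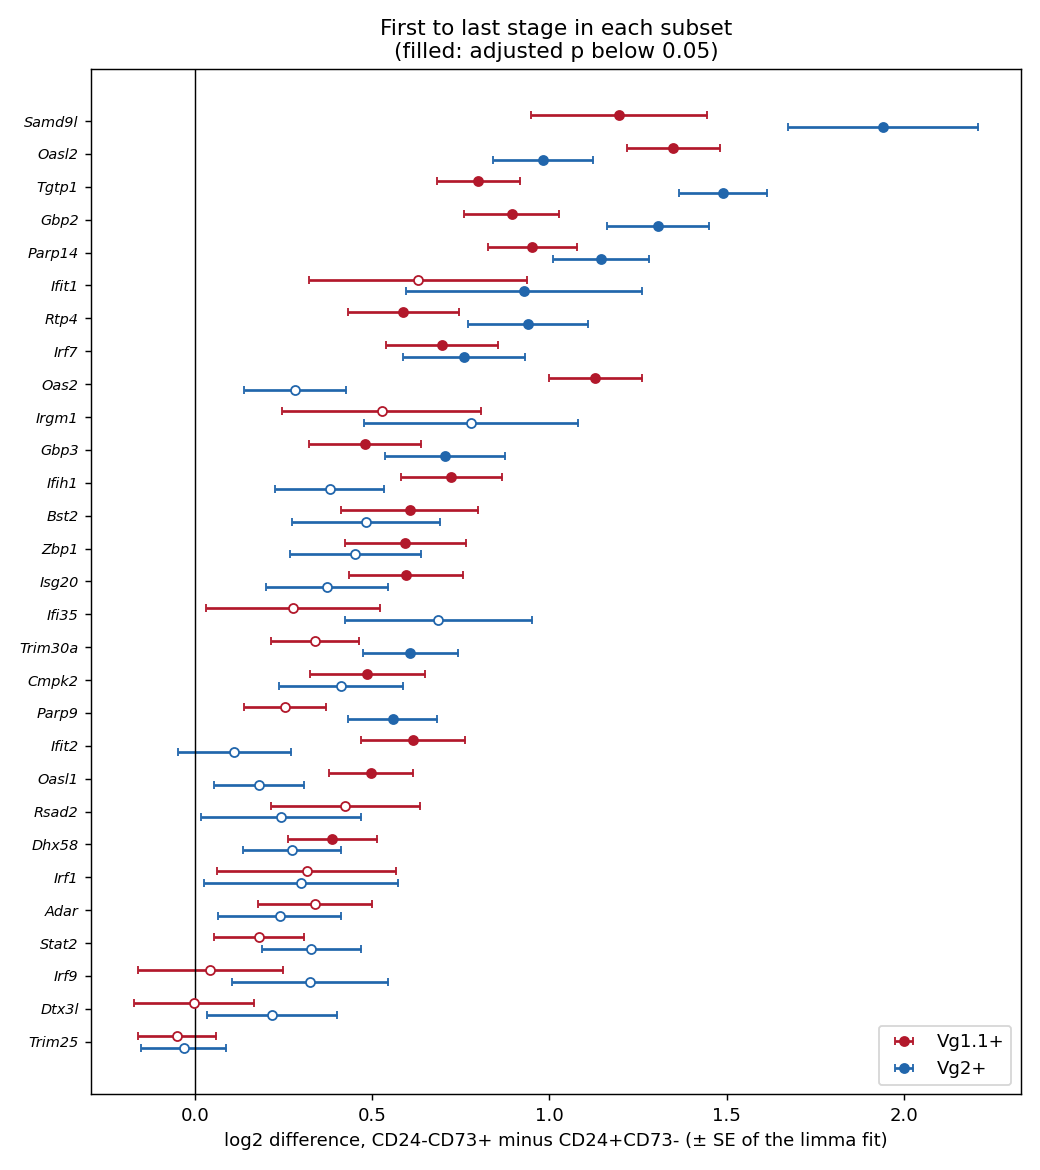
Log2 difference ± SE between CD24-CD73+ and CD24+CD73- cells for each tested interferon response gene in Vg1.1+ and Vg2+ cells, with filled points for an adjusted p under 0.05. No filled point lies below 0, and the widest difference is that of Samd9l in Vg2+ cells (1.94 ± 0.27).

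Markers of other cell types also changed over the same course, and their part in the results was not tested. Of the natural killer list, whose genes gamma-delta T cells can also express, only Eomes was tested. It averaged 4.41 ± 0.14, 6.14 ± 0.06 and 5.52 ± 0.16 over the Vg1.1+ stages and 4.50 ± 0.11, 5.95 ± 0.19 and 5.54 ± 0.14 over those of Vg2+ cells, so that it rose at the CD73 step and fell at the CD24 step in both (adjusted p = 0.00139 and 0.0105 for the fall). The cytotoxic protease Gzmb, which exceeded the table median on 1 array, averaged 2.77, 2.77 and 4.51 in Vg1.1+ cells and 2.61, 3.02 and 3.74 in Vg2+ cells, and Ncr1 exceeded it on 0 arrays.

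The plasmacytoid dendritic cell genes, counted without Bst2, had a mean log2 value per array of 6.01 to 6.17, 5.59 to 5.78 and 5.13 to 5.40 in Vg1.1+ cells and 6.03 to 6.20, 5.56 to 5.93 and 5.31 to 5.54 in Vg2+ cells. Ccr9, a homing receptor of thymocytes too, Tcf4 and Ly6d fell over the whole course, at -3.59, -1.02 and -1.45 (log2 difference) in Vg1.1+ and -2.79, -1.09 and -0.93 in Vg2+ cells. Pacsin1 of the same list went with the interferon response genes in Vg1.1+ cells (0.67 ± 0.18, adjusted p = 0.00877, without overlap), and was not called in Vg2+ cells (-0.22). Cox6a2 of that list did not fall, at 0.20 in Vg1.1+ and 0.46 in Vg2+ cells, and was called in neither. The alpha-beta lineage thymocyte genes had a mean of 4.74 to 6.06, 3.89 to 4.20 and 4.19 to 4.31 per array in Vg1.1+ cells and 4.43 to 4.79, 3.98 to 4.59 and 4.14 to 4.62 in Vg2+ cells. Arpp21 of that list fell over the course (-2.91 in Vg1.1+ and -2.88 in Vg2+ cells), and so did Cd8b1 in Vg1.1+ cells (-1.11). In Vg2+ cells C1qb (0.82) and the B-cell gene Cd79b (0.97) rose over the course, and Epcam fell in both subsets (-0.98 in Vg1.1+ and -0.67 in Vg2+ cells). The mean log2 value per array of the myeloid and dendritic cell list lay between 3.65 and 4.38, while Cst3 of that list ran from 7.42 to 9.24.

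The GTPases of cell-autonomous defence attack membranes around intracellular microbes. Tgtp1, an immunity-related GTPase, had log2 values of 4.28, 4.20, 4.16 and 4.36 in Vg1.1+ CD24+CD73- cells, 4.02, 4.06 and 4.08 in CD24+CD73+ cells and 5.27, 4.96, 5.17 and 4.80 in CD24-CD73+ cells. In Vg2+ cells its values were 3.67, 3.88 and 3.51, then 4.58, 4.67, 4.82 and 4.58, then 5.02, 5.08, 5.19 and 5.43. The stages of Vg2+ cells did not overlap and followed each other upwards, whereas in Vg1.1+ cells the middle stage lay just below the first and the last stood above both. The difference between last and first stage was 0.80 ± 0.12 in Vg1.1+ cells (log2 ± SE, adjusted p = 2.03e-05) and 1.49 ± 0.13 in Vg2+ cells (adjusted p = 1.04e-08). Tgtp1 exceeded the table median on 12 arrays, those of Vg2+ CD24+CD73+ cells and of the last stage of both subsets. It has a near-identical neighbour, Tgtp2, so its values may hold both. A second probe set, of lower mean and not used for the tests, averaged 3.69 ± 1.05, 2.52 ± 0.73 and 3.80 ± 0.54 in Vg1.1+ cells and 3.34 ± 0.37, 4.45 ± 0.76 and 5.55 ± 0.76 in Vg2+ cells (SD). Its means ran upwards over the Vg2+ stages like those of the used one, with wider spread, and its last and first Vg1.1+ stages overlap in their SDs.

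Gbp2, a guanylate-binding protein, had log2 values of 5.83, 5.81, 5.79 and 5.60, then 5.78, 5.81 and 5.76, then 6.22, 6.94, 6.72 and 6.74 over the stages of Vg1.1+ cells. In Vg2+ cells the values were 5.99, 5.50 and 5.78, then 5.64, 5.86, 5.88 and 5.81, then 7.07, 6.86, 7.06 and 7.25. In both subsets the first and middle stages overlapped and every CD24-CD73+ array stood above them. From the middle to the last stage Gbp2 rose by 0.87 ± 0.14 in Vg1.1+ cells (adjusted p = 0.000261) and by 1.27 ± 0.13 in Vg2+ cells (adjusted p = 3.36e-07). Its relative Gbp3 had 5.11, 5.03, 5.46 and 4.97, then 5.54, 5.43 and 5.34, then 5.27, 5.97, 5.62 and 5.62 in Vg1.1+ cells. In Vg2+ cells Gbp3 had 5.15, 4.50 and 4.98, then 5.60, 5.44, 5.33 and 5.73, then 5.36, 5.55, 5.79 and 5.62. Its last and first stages overlapped in Vg1.1+ cells and were apart in Vg2+ cells, where the rise came before CD24 was lost. The last minus first difference of Gbp3 was 0.48 ± 0.16 in Vg1.1+ cells (adjusted p = 0.0299) and 0.71 ± 0.17 in Vg2+ cells (adjusted p = 0.00362). In Vg1.1+ cells the call of Gbp3 ended without CD24+CD73- replicate 1, 2 or 4 or CD24-CD73+ replicate 2 or 4 (adjusted p up to 0.111). Irgm1, another immunity-related GTPase, averaged 6.88, 6.91 and 7.41 ± 0.80 over the Vg1.1+ stages and 6.77, 6.94 and 7.55 over those of Vg2+ cells, and passed in no comparison of all arrays. Without the pair of narrow arrays limma called it over the whole course in Vg1.1+ (0.92, adjusted p = 0.000715) and Vg2+ cells (0.78, adjusted p = 0.00248). It was then also called at the CD24 step (0.90, adjusted p = 0.0037, and 0.75, adjusted p = 0.00477).

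**Figure D3:**
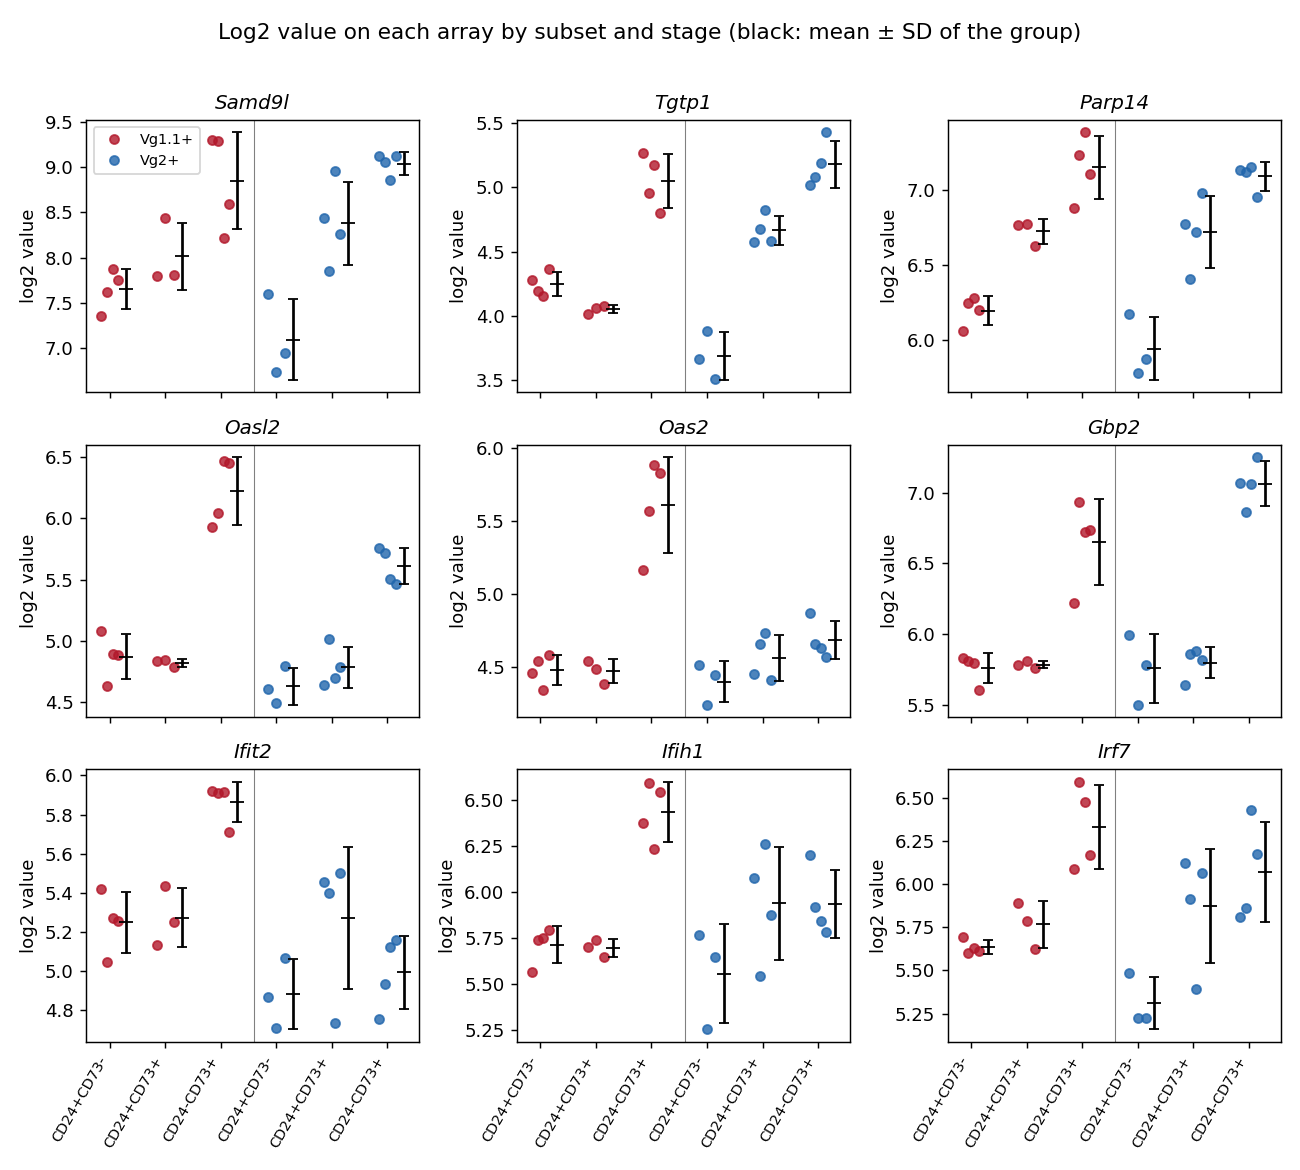
Log2 value of 9 interferon response genes on each of the 22 arrays (points) by subset and stage, with the mean ± SD of each group in black. Oas2 and Ifit2 separate Vg1.1+ from Vg2+ cells at CD24-CD73+, while Samd9l, Tgtp1 and Parp14 in Vg2+ cells are already higher at CD24+CD73+.

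The OAS proteins sense double-stranded RNA and, in the case of Oas2, start the breakdown of RNA through RNase L. Oasl2, an OAS-like protein, had log2 values of 5.08, 4.64, 4.89 and 4.88, then 4.84, 4.85 and 4.79, then 5.93, 6.05, 6.47 and 6.45 over the Vg1.1+ stages. In Vg2+ cells Oasl2 had 4.61, 4.50 and 4.79, then 4.64, 5.02, 4.70 and 4.79, then 5.76, 5.72, 5.51 and 5.47. Only the last stage stood apart, in both subsets, and there every Vg1.1+ array lay above every Vg2+ array. Oasl2 was higher at the last than at the first stage by 1.35 ± 0.13 in Vg1.1+ cells (adjusted p = 9.81e-08) and by 0.98 ± 0.14 in Vg2+ cells (adjusted p = 1.91e-05). Oas2 itself had 4.46, 4.54, 4.34 and 4.58, then 4.55, 4.49 and 4.38, then 5.17, 5.57, 5.88 and 5.83 in Vg1.1+ cells. In Vg2+ cells Oas2 had 4.52, 4.25 and 4.45, then 4.46, 4.66, 4.74 and 4.41, then 4.87, 4.66, 4.63 and 4.57. The last Vg1.1+ stage stood above every other group, and the Vg2+ values stayed close to the table median of 4.55 throughout. The last minus first difference of Oas2 was 1.13 ± 0.13 in Vg1.1+ cells (adjusted p = 1.24e-06) and 0.28 ± 0.14 in Vg2+ cells (adjusted p = 0.173). Oasl1, which in mouse restrains the translation of Irf7, averaged 4.94 ± 0.14, 5.28 ± 0.08 and 5.44 ± 0.22 in Vg1.1+ cells and 4.75 ± 0.08, 5.26 ± 0.22 and 4.93 ± 0.08 in Vg2+ cells.

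The IFIT proteins bind foreign RNA and hold back its translation. Ifit1 had log2 values of 5.75, 5.51, 5.46 and 5.31, then 5.16, 5.54 and 5.61, then 6.11, 6.14, 6.14 and 6.16 in Vg1.1+ cells. In Vg2+ cells Ifit1 had 4.97, 4.74 and 5.69, then 3.76, 5.72, 4.84 and 5.81, then 6.31, 6.29, 5.80 and 5.83. The arrays of the last stage lay above all those of the first in both subsets, and the middle Vg2+ stage was the most spread. The last minus first difference of Ifit1 was 0.63 ± 0.31 in Vg1.1+ cells (adjusted p = 0.153) and 0.93 ± 0.33 in Vg2+ cells (adjusted p = 0.0464), a call lost without any 1 of 15 arrays (adjusted p up to 0.209). Ifit2 had 5.42, 5.05, 5.27 and 5.25, then 5.13, 5.43 and 5.25, then 5.92, 5.91, 5.92 and 5.71 in Vg1.1+ cells. In Vg2+ cells Ifit2 had 4.87, 4.71 and 5.07, then 5.45, 5.40, 4.73 and 5.50, then 4.76, 4.94, 5.12 and 5.16. The last stage lay above the first without overlap in Vg1.1+ cells and overlapped it in Vg2+ cells. The last minus first difference of Ifit2 was 0.62 ± 0.15 in Vg1.1+ cells (adjusted p = 0.00367) and 0.11 in Vg2+ cells, which was not called.

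Other effectors act on viral RNA, translation and release. Samd9l, which restrains translation and growth, had log2 values of 7.36, 7.62, 7.88 and 7.76, then 7.80, 8.44 and 7.81, then 9.30, 9.28, 8.22 and 8.60 in Vg1.1+ cells. In Vg2+ cells Samd9l had 7.59, 6.74 and 6.95, then 8.44, 7.86, 8.95 and 8.26, then 9.12, 9.05, 8.85 and 9.12. In both subsets the last stage lay above the first without overlap and the middle stage ran into the last. Samd9l had a difference of 1.20 ± 0.25 in Vg1.1+ cells (adjusted p = 0.00103) and 1.94 ± 0.27 in Vg2+ cells (adjusted p = 1.01e-05). Isg20, an exonuclease of single-stranded RNA, had 5.99, 6.09, 6.35 and 5.93, then 6.37, 6.10 and 5.94, then 6.33, 7.03, 6.61 and 6.78 in Vg1.1+ cells. In Vg2+ cells Isg20 had 6.10, 5.64 and 6.02, then 6.44, 5.94, 6.08 and 6.13, then 5.96, 6.43, 6.37 and 6.42. One array of the last Vg1.1+ stage, replicate 1, was within the range of the first stage, and the Vg2+ stages overlapped. Isg20 differed by 0.60 ± 0.16 in Vg1.1+ cells (adjusted p = 0.00862) and by 0.37 in Vg2+ cells, which was not called. Bst2, the tetherin that holds budding virus on the cell, averaged 7.25 ± 0.20, 7.33 ± 0.08 and 7.86 ± 0.46 in Vg1.1+ cells and 7.51 ± 0.28, 7.30 ± 0.35 and 7.99 ± 0.14 in Vg2+ cells. Bst2 is also a plasmacytoid dendritic cell marker, and it was called for the whole course in Vg1.1+ cells (0.61 ± 0.19, adjusted p = 0.0261), a call that ended without CD24+CD73- replicate 1, 2 or 4 or CD24-CD73+ replicate 2 (adjusted p up to 0.109). The nucleotide kinase Cmpk2 exceeded the table median on 3 arrays and was called for the whole course in Vg1.1+ cells (0.49 ± 0.16, adjusted p = 0.0332), which ended without CD24-CD73+ replicate 1 or 4 or CD24+CD73- replicate 3 or 4 (adjusted p up to 0.139). Its chromosomal neighbour Rsad2, or viperin, and the RNA-editing enzyme Adar passed in no comparison of all arrays. Without the pair of narrow arrays limma called Rsad2 (0.54, adjusted p = 0.035) and Adar (0.52, adjusted p = 0.00704) over the whole course in Vg1.1+ cells. Adar was then also called higher in Vg1.1+ than in Vg2+ cells at CD24-CD73+ (0.48, adjusted p = 0.0209).

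Parp14, an enzyme that attaches single ADP-ribose units, was the member called in both subsets in all 3 stage comparisons. Its log2 values were 6.06, 6.25, 6.28 and 6.20, then 6.77, 6.78 and 6.63, then 6.88, 7.23, 7.38 and 7.10 in Vg1.1+ cells. In Vg2+ cells they were 6.18, 5.78 and 5.88, then 6.77, 6.41, 6.72 and 6.98, then 7.13, 7.12, 7.16 and 6.95. Each Vg1.1+ stage lay above the one before it without overlap, and in Vg2+ cells the middle and last stages touched on 1 array. Parp14 was higher at the last than at the first stage by 0.95 ± 0.13 in Vg1.1+ cells (adjusted p = 6.12e-06) and by 1.15 ± 0.14 in Vg2+ cells (adjusted p = 1.32e-06). Parp9 and Dtx3l form a complex that modifies histones and viral proteins. Parp9 averaged 7.13 ± 0.09, 7.28 ± 0.11 and 7.39 ± 0.27 in Vg1.1+ cells and 6.88 ± 0.10, 7.14 ± 0.12 and 7.44 ± 0.11 in Vg2+ cells, where it was called for the whole course (0.56 ± 0.13, adjusted p = 0.00195). Dtx3l passed in no comparison. Trim30a, a ubiquitin ligase of the TRIM family, was called for the whole course in Vg2+ cells (0.61 ± 0.13, adjusted p = 0.00175). In Vg1.1+ cells it was not called with all arrays (0.34, adjusted p = 0.0533). Without the pair of narrow arrays limma called Trim30a (0.50, adjusted p = 0.000314) and Parp9 (0.37, adjusted p = 0.0106) in Vg1.1+ cells too. Trim25, the ligase that acts with the RNA sensor RIG-I, was called in no comparison.

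Sensors of nucleic acid included Ifih1, known as MDA5, a receptor for long double-stranded RNA. Its log2 values were 5.57, 5.74, 5.75 and 5.80, then 5.70, 5.74 and 5.65, then 6.38, 6.59, 6.24 and 6.54 in Vg1.1+ cells. In Vg2+ cells Ifih1 had 5.77, 5.26 and 5.65, then 6.08, 5.54, 6.26 and 5.87, then 6.20, 5.92, 5.84 and 5.79. The last Vg1.1+ stage lay above every earlier Vg1.1+ array, and the middle and last Vg2+ stages overlapped. The last minus first difference of Ifih1 was 0.72 ± 0.14 in Vg1.1+ cells (adjusted p = 0.000624) and 0.38 in Vg2+ cells (adjusted p = 0.0811). Dhx58, or LGP2, which tunes signalling by such receptors, averaged 4.66 ± 0.18, 4.91 ± 0.10 and 5.05 ± 0.29 in Vg1.1+ cells and 4.38 ± 0.08, 4.82 ± 0.11 and 4.65 ± 0.14 in Vg2+ cells. Zbp1, a sensor of Z-form nucleic acid that can trigger cell death, averaged 7.33 ± 0.18, 7.26 ± 0.19 and 7.92 ± 0.40 in Vg1.1+ cells and 7.23 ± 0.15, 7.19 ± 0.07 and 7.68 ± 0.31 in Vg2+ cells. Over the whole course in Vg1.1+ cells the calls of Dhx58 (0.39 ± 0.13, adjusted p = 0.0292) and Zbp1 (0.59 ± 0.17, adjusted p = 0.0133) depended on single arrays. That of Dhx58 ended without CD24+CD73- replicate 2 or 4 or CD24-CD73+ replicate 2 or 4 (adjusted p up to 0.112), and that of Zbp1 without CD24-CD73+ replicate 3 (adjusted p = 0.0506).

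Among transcription factors Irf7, which amplifies the response to type I interferon, had log2 values of 5.69, 5.60, 5.63 and 5.61, then 5.89, 5.79 and 5.62, then 6.09, 6.59, 6.47 and 6.17 in Vg1.1+ cells. In Vg2+ cells Irf7 had 5.49, 5.22 and 5.22, then 6.12, 5.91, 5.39 and 6.07, then 5.81, 5.86, 6.43 and 6.17. The last stage lay above the first without overlap in both subsets, and in Vg2+ cells the middle stage overlapped both. The last minus first difference of Irf7 was 0.70 ± 0.16 in Vg1.1+ cells (adjusted p = 0.00238) and 0.76 ± 0.17 in Vg2+ cells (adjusted p = 0.00214). With all arrays Stat2 was called at a single step, and Irf9 and Irf1 in no comparison. Without the pair of narrow arrays limma called Irf9 over the whole course in Vg1.1+ cells (0.355, adjusted p = 0.0467). It then also called Stat2 over the whole course in Vg2+ cells (0.33, adjusted p = 0.0326). Irf9 averaged 5.98 ± 0.64 in Vg1.1+ CD24-CD73+ and 5.94 ± 0.18 in Vg1.1+ CD24+CD73- cells, and 6.23 ± 0.14 in Vg2+ CD24-CD73+ and 5.90 ± 0.19 in Vg2+ CD24+CD73- cells.

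Rtp4, a chaperone of receptors that in mouse also dampens interferon signalling, had log2 values of 7.34, 7.33, 7.20 and 7.09, then 7.54, 7.41 and 7.43, then 7.20, 8.22, 7.79 and 8.10 in Vg1.1+ cells. In Vg2+ cells Rtp4 had 6.96, 6.87 and 6.90, then 7.75, 7.36, 7.58 and 7.50, then 7.94, 7.72, 7.97 and 7.77. Replicate 1 of the last Vg1.1+ stage lay within the first stage, and the Vg2+ stages ran upwards with overlap between the middle and last. Rtp4 differed by 0.59 ± 0.16 in Vg1.1+ cells (adjusted p = 0.00797) and by 0.94 ± 0.17 in Vg2+ cells (adjusted p = 0.000224). Ifi35, an interferon-induced leucine zipper protein, had 6.48, 6.21, 6.37 and 6.15, then 7.02, 6.45 and 6.84, then 5.84, 6.86, 7.01 and 6.60 in Vg1.1+ cells. In Vg2+ cells Ifi35 had 6.12, 5.98 and 6.25, then 5.92, 6.46, 5.19 and 6.41, then 6.54, 6.93, 7.03 and 6.72. Replicate 1 of the last Vg1.1+ stage lay below every array of the first, and in Vg2+ cells the last stage lay above both earlier ones. The whole course was called in neither subset (0.28 and 0.69), and without the pair of narrow arrays in both (0.52, adjusted p = 0.0205, and 0.69, adjusted p = 0.00229).

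The step at which CD73 appeared was then examined in each subset. In Vg2+ cells 9 of 29 interferon response genes were higher in CD24+CD73+ than in CD24+CD73- cells and 0 lower, with 5.82% of all tested genes called higher and 6.41% lower. They were Rtp4, Irf7, Oasl1, Gbp3, Dhx58, Parp14, Trim30a, Samd9l and Tgtp1, with Samd9l up by 1.28 ± 0.27 (adjusted p = 0.00223) and Tgtp1 by 0.98 ± 0.13 (adjusted p = 9.14e-06). In Vg1.1+ cells 1 of 29 was called, Parp14 at 0.53 ± 0.14 (adjusted p = 0.0155), with 4.37% of all tested genes higher and 3.45% lower. At an unadjusted p under 0.05 it was 3, namely Oasl1, Parp14 and Trim30a, and the share of all tested genes at that threshold was not counted. The call of Parp14 in Vg1.1+ cells ended without CD24+CD73+ replicate 1 or 2 (adjusted p up to 0.0775). The median log2 difference over the members was 0.13 in Vg1.1+ and 0.23 in Vg2+ cells, and over all tested genes 0.00 and -0.05. The Vg2+ count fell to 4 without CD24+CD73- replicate 2 and to 5 without replicate 3. Calls among all tested genes, in either direction, fell from 1045 to 701 and 704. The calls of Samd9l, Parp14 and Tgtp1 were made whichever single array was left out. The other 6 were each lost without 1 or more single arrays (adjusted p up to 0.157). In Vg2+ cells the myeloid list also shifted at this step, with a mean log2 value per array of 4.02 to 4.38 in CD24+CD73+ and 3.81 to 3.87 in CD24+CD73- cells. Cd68, C1qb and H2-Aa of that list rose by 0.58, 0.98 and 0.83 (adjusted p of 0.00919, 0.00322 and 0.0477), while Csf1r, C1qa, C1qc, Itgam, Adgre1 and Clec9a were on no array above the table median. In both subsets Eomes rose at this step (1.72 in Vg1.1+ and 1.45 in Vg2+ cells), and Ccr9 (-1.87 and -2.23), Cd8b1 (-2.29 and -0.93) and Arpp21 (-1.52 and -1.69) fell, as did Cd8a (-1.63) and Ly6d (-1.40) in Vg1.1+ cells. Cox6a2 of the plasmacytoid dendritic cell list had positive differences (0.41 and 0.63) that were not called (adjusted p = 0.325 and 0.0546). Their part in the result was not tested.

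The step at which CD24 was lost was examined next. In Vg1.1+ cells 11 of 29 were higher in CD24-CD73+ than in CD24+CD73+ cells and 0 lower, with 4.28% of all tested genes higher and 6.92% lower. In Vg2+ cells 9 of 29 were higher and 0 lower, with 10.3% of all tested genes higher and 9.91% lower. Oasl2, Zbp1, Gbp2, Parp14 and Tgtp1 were called in both. Ifit2, Irf7, Oas2, Isg20, Ifih1 and Samd9l made up the rest in Vg1.1+ cells, and Ifit1, Ifi35, Stat2 and Bst2 in Vg2+ cells. Oasl2 rose by 1.40 ± 0.14 in Vg1.1+ cells (adjusted p = 7.03e-07) and by 0.83 ± 0.13 in Vg2+ cells (adjusted p = 7.06e-05). The median log2 difference over the members was 0.37 in Vg1.1+ and 0.21 in Vg2+ cells, against -0.05 and 0.02 over all tested genes. Among markers, Cd8b1 rose at this step in both subsets (1.18, adjusted p = 0.0113, in Vg1.1+ and 0.79, adjusted p = 0.0476, in Vg2+ cells), while Arpp21 (-1.39 and -1.19), Tcf4 (-0.87 and -0.93) and Epcam (-1.08 and -0.95) fell in both. Cd79b fell in Vg1.1+ cells (-1.03, adjusted p = 0.0243) and rose in Vg2+ cells (0.99, adjusted p = 0.0111), Ccr9 fell in Vg1.1+ cells (-1.73) and Cd68 in Vg2+ cells (-0.63). The part of these cell types in the result was not tested.

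Single arrays bore on many calls of the CD24 step. The Vg1.1+ count was 7 without CD24+CD73+ replicate 1 or 2, 5 without CD24+CD73+ replicate 3 and 6 without CD24-CD73+ replicate 2. Among all tested genes, in either direction, 623, 701, 623 and 857 were called in these settings, against 957 with all arrays. Oasl2, Oas2, Gbp2, Ifih1 and Tgtp1 passed whichever array was left out. The Vg2+ count was 5 without CD24+CD73+ replicate 1 or CD24-CD73+ replicate 2, where 1473 and 1510 of all tested genes were called, against 1725. Oasl2, Gbp2 and Tgtp1 passed whichever array was left out. The CD24-step calls of Ifit2, Irf7, Isg20 and Zbp1 in Vg1.1+ cells (adjusted p up to 0.197) and of Ifit1, Ifi35 and Parp14 in Vg2+ cells (up to 0.141) were each lost without at least 1 of several arrays. In Vg1.1+ cells Parp14 and Samd9l lost the call without any 1 of 16 and 15 arrays (adjusted p up to 0.175 and 0.197). In Vg2+ cells Zbp1 lost it without any 1 of 15 arrays (adjusted p up to 0.155), and Stat2 and Bst2 without CD24+CD73+ replicate 3 (adjusted p = 0.0621 and 0.0606). Without both narrow arrays the Vg2+ count was 14, beside 1973 of all tested genes. Of the 14, 2 were lower: Ifit2 (-0.46, adjusted p = 0.00815) and Oasl1 (-0.41, adjusted p = 0.00582). With all arrays these genes differed by -0.28 and -0.33 (adjusted p = 0.211 and 0.0523).

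**Figure D4:**
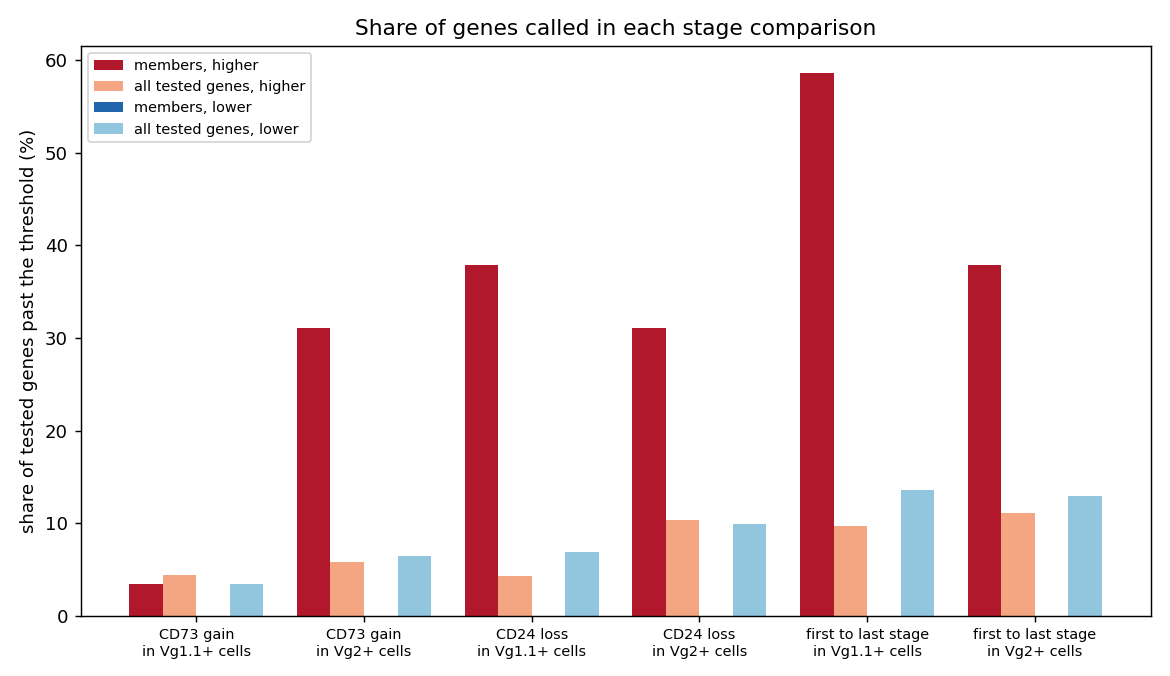
Share of the 29 tested interferon response genes called higher or lower, beside the share of all 8545 tested genes, for the stage comparisons of both subsets. The share of members runs up to 58.6% for the whole course in Vg1.1+ cells, and is 3.45% for the CD73 step in Vg1.1+ cells.

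The subsets were compared directly at each stage. In CD24+CD73- cells 1 of 29 interferon response genes differed, with 1.56% of all tested genes higher and 0.492% lower in Vg1.1+ cells. This was Tgtp1, higher in Vg1.1+ than in Vg2+ cells by 0.56 ± 0.13 (adjusted p = 0.0212), a call that ended without Vg2+ replicate 1 or 3 or Vg1.1+ replicate 4 (adjusted p up to 0.154). Every array of both groups lay below the table median of 4.55 (up to 4.36 and 3.88), and Tgtp1 passed the filter through other groups. Its second probe set averaged 3.69 ± 1.05 in Vg1.1+ and 3.34 ± 0.37 in Vg2+ cells of this stage. Of the 29 genes 27 had a positive difference, with a median of 0.18 (0.02 over all tested genes). In CD24+CD73+ cells limma called 0 of 29, with 0.0117% of all tested genes higher and 0% lower, and 3 had an unadjusted p under 0.05, namely Ifi35 (0.78), Stat2 and Tgtp1 (-0.61). The share of all tested genes at the unadjusted threshold was not counted, so these 3 are no result about the members. With array weights 2 members were called at this stage, 1 in each direction, beside 436 of all 8545 tested genes.

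In CD24-CD73+ cells 6 of 29 were higher in Vg1.1+ than in Vg2+ cells and 0 lower, with 5.79% of all tested genes higher and 5.72% lower. Oas2 was higher by 0.93 ± 0.13 (adjusted p = 3.72e-05), Ifit2 by 0.87 ± 0.15 (adjusted p = 0.000261), Oasl2 by 0.61 ± 0.13 (adjusted p = 0.00295) and Oasl1 by 0.51 ± 0.12 (adjusted p = 0.00543). These 4 calls held whichever single array was left out. Ifih1 (0.50 ± 0.14, adjusted p = 0.0243) lost the call without Vg1.1+ replicate 2 or 4 or Vg2+ replicate 2, 3 or 4 of that stage (adjusted p up to 0.0828), and Dhx58 (0.40 ± 0.13, adjusted p = 0.0466) without any 1 of 17 arrays (adjusted p up to 0.169). The GTPase Gbp2 had the opposite sign (-0.41, adjusted p = 0.0514), and the groups overlapped. Ifit1 and the RNA sensor Ddx58 differed by 0.08 and 0.11 and were not called. Of the 29 genes 18 were positive, and their median of 0.06 lay near that of all tested genes (0.01). Among markers, the B-cell gene Cd79b was lower in Vg1.1+ cells by 1.64 in the same comparison, and C1qb, Cst3 and Ccr9 differed by -0.64, -0.70 and -1.15. Pacsin1 was higher in Vg1.1+ cells by 0.87 ± 0.18 (adjusted p = 0.00196, without overlap), in the direction of the 6 members. Their part in the result was not tested.

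**Figure D5:**
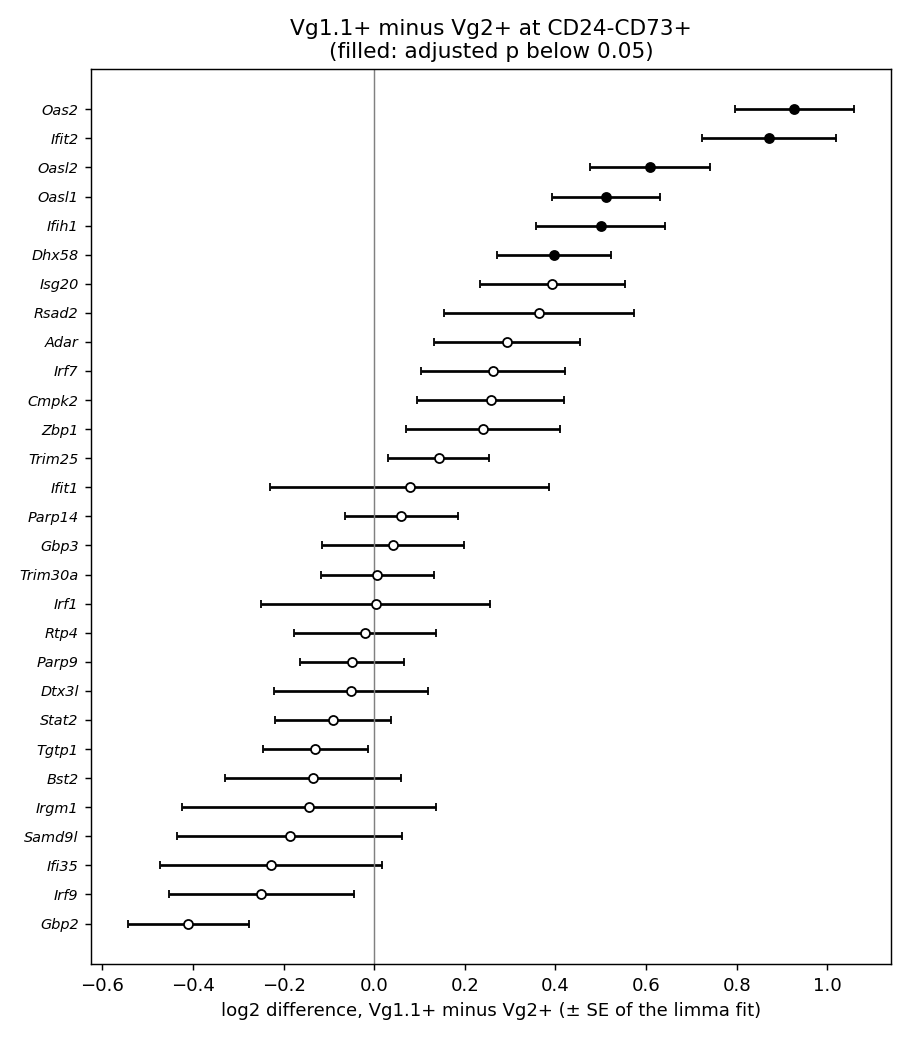
Log2 difference ± SE between Vg1.1+ and Vg2+ cells at the CD24-CD73+ stage for each tested interferon response gene. The 6 called genes, with Oas2 (0.93) and Ifit2 (0.87) furthest out, are all higher in Vg1.1+ cells, while Gbp2 lies at -0.41.

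The steps themselves were also tested for a difference between the subsets. At the CD73 step 1 of 29 members differed (0.0351% of all tested genes higher and 0.0585% lower), which was Tgtp1 with a Vg1.1+ minus Vg2+ difference of steps of -1.17 ± 0.18 (adjusted p = 0.00407), a call made whichever array was left out. All arrays of Tgtp1 at CD24+CD73- in both subsets and at CD24+CD73+ in Vg1.1+ cells lay below the table median. At the CD24 step 3 of 29 had a larger step in Vg1.1+ cells and 0 a smaller one (1.83% of all tested genes higher and 3.23% lower). Oas2 differed by 1.02 ± 0.20 (adjusted p = 0.00259), Ifit2 by 0.87 ± 0.22 (adjusted p = 0.0217) and Ifih1 by 0.74 ± 0.21 (adjusted p = 0.0438). The call of Ifit2 ended without Vg1.1+ CD24+CD73+ replicate 1 or 3 (adjusted p up to 0.0788), and that of Ifih1 without any 1 of 16 arrays (adjusted p up to 0.109). Over the whole course 2 members differed, in a comparison added after the data had been seen (1.5% of all tested genes higher and 2.48% lower). Oas2 rose more in Vg1.1+ cells (0.85 ± 0.20, adjusted p = 0.0135) and Tgtp1 rose less (-0.69 ± 0.17, adjusted p = 0.0221). The call of Tgtp1 ended without CD24+CD73- replicate 1 or 3 of Vg2+ cells or 4 of Vg1.1+ cells, or CD24-CD73+ replicate 4 of either subset (adjusted p up to 0.094). Of the markers, Cd79b differed between the subsets at the CD24 step (-2.02) and over the whole course (-1.68), and C1qb over the whole course (-1.28), and their part in the result was not tested.

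Many of the members varied together between arrays, and some did not. Over the 406 pairs of tested members, the median Pearson r of log2 values on the 22 arrays was 0.50, against 0.02 over pairs of all tested genes. Those values hold the stage differences. After each group's mean was taken off, the median r was 0.31 for members and 0.04 for all genes, and 32.5% of member pairs exceeded 0.5, against 15.3%. Parp9 with Rtp4, and Adar with Irf1, were the closest pairs (both r = 0.89). Trim30a had the highest median r with the other members (0.57), while that of Cmpk2 (-0.34), Tgtp1 (-0.31), Samd9l (-0.22), Ifih1 (-0.09) and Ifit1 (-0.01) was negative. The arrays share platform and normalisation and include the pair of narrow spread, and these correlations are descriptions.

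Genes of the pathway outside the 37 were followed from fixed lists. Of 35 upstream signalling genes 30 were measured and 24 tested, and over the whole course 5 were higher and 2 lower in Vg1.1+ cells (over all tested genes, 9.71% higher and 13.6% lower) and 8 higher and 0 lower in Vg2+ cells (over all tested genes, 11.1% higher and 12.9% lower). Both chains of the interferon gamma receptor differed between the subsets at the last stage. Ifngr1, its ligand-binding chain, averaged 8.40 ± 0.10, 7.72 ± 0.09 and 7.37 ± 0.25 over the Vg1.1+ stages and 9.12 ± 0.20, 7.79 ± 0.10 and 9.60 ± 0.05 over those of Vg2+ cells. At CD24-CD73+ it was lower in Vg1.1+ than in Vg2+ cells by 2.23 ± 0.11 (log2 difference of -2.23, adjusted p = 1.17e-11), and the CD24 steps differed by -2.15 ± 0.17 (adjusted p = 3.3e-08). Ifngr2, its signalling chain, averaged 7.35, 6.97 and 6.59 ± 0.42 in Vg1.1+ cells and 7.62, 6.80 and 7.58 ± 0.23 in Vg2+ cells, with a difference of -0.996 ± 0.16 at the last stage (adjusted p = 0.000167). The type I receptor chain Ifnar1 and the kinases Jak1 and Tyk2 were called in no comparison, and Ifnar2 fell at the CD24 step in Vg1.1+ cells (-0.69, adjusted p = 0.00913, and 0.0608 without CD24+CD73+ replicate 1).

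Ifng, interferon gamma itself, averaged 4.43 ± 0.36, 5.33 ± 0.25 and 5.93 ± 0.57 in Vg1.1+ cells and 4.25 ± 0.23, 5.37 ± 0.10 and 5.23 ± 0.46 in Vg2+ cells. Ifnb1, of the type I family, was below the table median in every group mean (2.77 to 3.04). Irf4, a lymphocyte factor of the same family as Irf7, averaged 5.49 ± 0.15 in Vg1.1+ and 4.67 ± 0.24 in Vg2+ cells of the last stage (difference of 0.81 ± 0.12, adjusted p = 5.52e-05). Irf2, which can oppose activation by Irf1, rose at the CD73 step (0.73 ± 0.14 in Vg1.1+ and 0.66 ± 0.14 in Vg2+ cells) and fell at the CD24 step (-0.65 ± 0.14 and -0.49 ± 0.13). The adaptor Myd88 was higher at the last than at the first stage by 0.67 ± 0.19 in Vg1.1+ cells (adjusted p = 0.0138, and 0.0578 without CD24-CD73+ replicate 1) and by 1.46 ± 0.21 in Vg2+ cells (adjusted p = 1.45e-05).

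Of 67 further interferon targets 38 were measured and 35 tested. Over the whole course 11 rose and 1 fell in Vg1.1+ cells, where 9.71% of all tested genes were higher and 13.6% lower. In Vg2+ cells 15 rose and 1 fell, where 11.1% were higher and 12.9% lower. Ifi27l2a, a small mitochondrial protein, averaged 8.98 ± 0.17, 9.83 ± 0.20 and 11.29 ± 0.28 in Vg1.1+ cells and 8.24 ± 0.48, 10.38 ± 0.20 and 10.43 ± 0.16 in Vg2+ cells. It rose at both steps in Vg1.1+ cells, and in Vg2+ cells the rise came at the CD73 step (2.14 ± 0.19, adjusted p = 5.4e-08). The guanylate-binding protein Gbp5 rose by 0.66 ± 0.12 in Vg1.1+ and 0.96 ± 0.13 in Vg2+ cells, the ubiquitin ligase Rnf213 by 0.78 ± 0.14 and 0.92 ± 0.15, and Trim34a by 0.64 ± 0.12 and 0.77 ± 0.12. The inflammatory caspase Casp4 rose by 2.10 ± 0.23 in Vg1.1+ and 1.85 ± 0.25 in Vg2+ cells, and the chemokine Ccl5, which cytotoxic lymphocytes also make without interferon, by 5.56 ± 0.26 and 6.55 ± 0.28. The galectin Lgals9 was the gene that fell (-1.40 ± 0.36 in Vg1.1+ and -1.64 ± 0.38 in Vg2+ cells). Of the 114 calls over both lists in all comparisons, 75 held whichever single array was left out.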

How the data were processed

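RNA of 22 sorted thymocyte samples was measured on 1-colour Affymetrix mouse exon arrays after Trizol extraction and biotin labelling, per the labels. The deposited values are log2 expression values per transcript cluster, made by the authors with RMA in the oligo package per the submitters' processing notes. Versions, the genome build and whether all arrays were normalised together are not given in the sources used here. Array medians lay between 4.43 and 4.76.

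The table held 16755 probe sets, of which 14996 listed 1 gene symbol, 1019 several and 740 none. Only the first kind was used, with the probe set of highest mean for the 135 genes with several. A gene was tested if its value exceeded the table median (4.55) on at least 3 arrays. A mean for each of the 6 groups was fitted to the 22 arrays as deposited (limma 3.58.1, R 4.3.3), with empirical Bayes (prior df 4.47) and two-sided tests. P-values were adjusted by Benjamini-Hochberg within each of 12 comparisons over 8545 genes (threshold 0.05, no minimum fold). The fit was tested on simulated data. The number of arrays limits the precision.

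All 30 measured members may be named, and values by array are given for the 14 called members with the widest range of group means. Other pathway genes past the threshold may be named. The members and lists were chosen with earlier results of these data known. Alternatives were a replicate block, no filter, a stricter filter (5.46 on at least 3 arrays), the groups of a comparison alone, trend and robust options, array weights, cyclic loess, all probe sets, each array left out and, added later, both narrow arrays left out.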

Additional observations from a re-analysis of the deposited data

Results flagged for a closer look

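Of 120 groups of 4 arrays, 9 (7.5%) held a single array far from the others by Dixon's gap test, where chance gives about 1 in 20. In Vg1.1+ CD24-CD73+ cells, Trim30a was at 8.87 and Irgm1 at 6.23 on replicate 1, against 9.50 to 9.56 and 7.67 to 7.92 on the other arrays, and this is 1 of the arrays of narrow spread. Ifit2 was at 5.71 on replicate 4 of that group, against 5.91 to 5.92. In Vg2+ CD24+CD73+ cells, Ifit2 was at 4.73 on replicate 3, the other narrow array, against 5.40 to 5.50, and Dhx58 at 4.98 on replicate 4, against 4.74 to 4.78. In Vg2+ CD24-CD73+ cells, Isg20 was at 5.96 on replicate 1, against 6.37 to 6.43, and Parp14 at 6.95 on replicate 4, against 7.12 to 7.16. In Vg1.1+ CD24+CD73- cells, Gbp2 was at 5.60 on replicate 4, against 5.80 to 5.83, and Adar at 6.09 on replicate 1, against 5.70 to 5.74.

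Steps that differed between the subsets by a test of the difference itself were those of Tgtp1 at the CD73 step (-1.17, Vg1.1+ minus Vg2+), Oas2 (1.02), Ifit2 (0.87) and Ifih1 (0.74) at the CD24 step, and Oas2 (0.85) and Tgtp1 (-0.69) over the whole course. In Tgtp1 the Vg1.1+ step was -0.20 at the gain of CD73, between groups that both lay below the table median, against 0.98 in Vg2+ cells.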

How the results depend on the processing

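Of the 71 calls of members over the 12 comparisons, 37 were kept under every alternative that was run for them. With each single array left out 40 were kept, 31 were lost without some array, and 0 reversed. The stricter filter left Tgtp1, Dhx58 and Cmpk2 untested, so their calls had no result under it. The counts of called members moved by over 1.5 times as follows, and unless stated the cause was not tested. At the CD73 step Vg1.1+ cells had 1 call (668). It became 3 with its groups alone (1328), 7 with array weights (2572), 2 with cyclic loess (828) and 3 without the narrow arrays (990). In Vg2+ cells 9 calls (1045) became 4 with the groups alone (673). At the CD24 step Vg1.1+ cells had 11 calls (957). They became 5 with the replicate block (689), 7 without filter (972), 7 with the groups alone (496) and 20 with array weights (2608). In Vg2+ cells 9 calls (1725) became 4 with the groups alone (1164) and 14 without the narrow arrays (1973). Over the whole course 17 calls (1994) in Vg1.1+ cells became 27 with array weights (3361). In Vg2+ cells 11 calls (2051) became 19 with array weights (2870), 17 with cyclic loess (2280) and 18 without the narrow arrays (2679). Neither narrow array belongs to the Vg2+ stages compared there, so the log2 differences stayed as they were and the shared estimate of spread changed. Vg1.1+ minus Vg2+ at CD24+CD73- had 1 call (175). It became 0 with the block (65), 2 without filter (115), 0 with the stricter filter (159), which leaves Tgtp1 untested, and 7 with array weights (1203). At CD24+CD73+ 0 calls (1) became 2 with array weights (436). At CD24-CD73+ 6 calls (984) became 2 with the groups alone (466) and 11 with array weights (1791). The difference of CD73 steps had 1 call (8). It became 0 with the stricter filter (6), which leaves Tgtp1 untested, and 3 with array weights (445). The difference of CD24 steps had 3 calls (432). They became 1 with the block (250), 1 with the groups alone (236) and 7 with array weights (1048). The difference over the whole course had 2 calls (340). They became 1 with the block (200), the stricter filter (238) and the groups alone (267), and 4 with array weights (919). Here too the stricter filter leaves Tgtp1 untested. With single arrays left out the counts ran from 0 to 2 and 4 to 10 (CD73 step, Vg1.1+ and Vg2+), 5 to 13 and 5 to 14 (CD24 step), 13 to 21 and 10 to 16 (whole course), 0 to 1, 0 to 1 and 4 to 8 (Vg1.1+ minus Vg2+ by stage), 1 to 1 and 1 to 5 (differences of the CD73 and CD24 steps) and 1 to 2 (difference over the whole course). Calls among all genes moved too, for instance from 668 to 437 at the Vg1.1+ CD73 step without CD24+CD73+ replicate 1. The replicate numbers were not taken as pairs: of 51 pairs of same-numbered arrays 6 had deviations from the group means that correlated above 0.1 (-0.67 to 0.56), and the block, fitted nonetheless, gave the counts above and no other count moved by over 1.5 times. Signals near the table median limit Cmpk2, Oas2, Tgtp1 and Dhx58.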
